A study of Homo sapiens with 6 samples.

Results

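The genes described here are 10 chemokines that tumour cells can make: CXCL1, CXCL2, CXCL3, CXCL5, CXCL6, CXCL8 (the array annotation's older name is IL8) and CXCL10 of the CXC class, and CCL2, CCL5 and CCL20 of the CC class. They were chosen by name, and every probe set that the platform annotation gives exactly 1 of these symbols was taken. This gave 17 of 54613 probe sets tested, and 10 of 19775 genes. A probe set is a group of short array probes read together, and none of the probe sets with several symbols named one of these genes. RNA came from MDA-MB-231, an established line derived from human breast cancer. Control cells (3 arrays) received a control vector and the other cells (3 arrays) an expression plasmid for HS3ST2, a heparan sulfate 3-O-sulfotransferase. The labels do not say whether the cells were a selected pool or 1 clone, how long after transfection RNA was taken, or whether each replicate was transfected on its own. The p-values therefore measure only the spread between these arrays, which may be technical.

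Chemokines are small secreted proteins that attract leukocytes through receptors with 7 membrane passes. The CXC members that carry a glutamate-leucine-arginine motif (CXCL1, CXCL2, CXCL3, CXCL5, CXCL6 and CXCL8) bind CXCR2, and some of them CXCR1, and recruit neutrophils. CXCL10, induced by interferon, binds CXCR3 on T cells. CCL2 draws monocytes through CCR2, CCL5 attracts T cells and monocytes, and CCL20 is the ligand of CCR6. Many of these genes are switched on by NF-kB after stimulation with IL-1 or TNF, and the proteins are held on cell surfaces by heparan sulfate.

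Of the 10 genes, 7 lie on chromosome 4, 2 (CCL2 and CCL5) on chromosome 17 and CCL20 on chromosome 2. RefSeq promoter sequences (GRCh38.p14) were found for 8 of them. The 100 bases before the start of 7 genes are shown. Among CXCL1, CXCL2 and CXCL3, and between CXCL5 and CXCL6, genes that fell and genes that did not pass share much of this sequence. The stretches of CXCL8 and CCL20 were less alike to any other. The closest to CXCL8 was CXCL5 (identical at 55 of 104 aligned positions), and the closest to CCL20 was CXCL2 (54 of 108). Capitals mark bases in a match to the NF-kB consensus site or to the 9-letter core GGAATTTCC, and each line runs 5′ to 3′ on the gene's own strand.
CXCL3 (chr4:74038690-74038789, minus strand): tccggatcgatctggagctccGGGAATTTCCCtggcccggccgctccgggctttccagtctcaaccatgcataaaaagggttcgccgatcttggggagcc
CXCL1 (chr4:73869293-73869392, plus strand): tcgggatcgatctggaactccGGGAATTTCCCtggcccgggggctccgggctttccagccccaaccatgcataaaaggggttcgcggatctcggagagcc
CXCL2 (chr4:74099196-74099295, minus strand): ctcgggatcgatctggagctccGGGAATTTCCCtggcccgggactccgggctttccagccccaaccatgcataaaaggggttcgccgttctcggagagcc
CXCL5 (chr4:73998678-73998777, minus strand): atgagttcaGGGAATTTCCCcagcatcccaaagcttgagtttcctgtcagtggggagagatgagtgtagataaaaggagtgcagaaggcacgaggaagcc
CXCL6 (chr4:73836578-73836677, plus strand): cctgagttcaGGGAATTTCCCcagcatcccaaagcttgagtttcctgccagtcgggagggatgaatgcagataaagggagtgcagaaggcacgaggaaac
CXCL8 (chr4:73740469-73740568, plus strand): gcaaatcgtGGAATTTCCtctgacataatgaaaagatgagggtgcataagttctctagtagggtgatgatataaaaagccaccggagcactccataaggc
CCL20 (chr2:227813742-227813841, plus strand): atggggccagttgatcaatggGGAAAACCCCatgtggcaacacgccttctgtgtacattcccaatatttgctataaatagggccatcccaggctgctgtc

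Both motifs were searched on both strands of the 250 bases before each start, and their matches overlap in 5 of the 7 stretches shown. The core GGAATTTCC was in 7 of the 8 promoters (all but CCL20) and in 0.413% of 35116 RefSeq promoters. The NF-kB consensus was in 7 of the 8 (all but CXCL8) and in 9.96% of all promoters. The stretches of CXCL1, CXCL2 and CXCL3 are near copies of each other, as are those of CXCL5 and CXCL6 (89.1% identical or more). Their matches are therefore not independent of each other. In CXCL10 the matches lay 177 to 168 and 122 to 113 bases before the start, outside the shown window, and CXCL10 also had an interferon response motif, 221 to 212 bases before the start (a match to it was in 3.02% of promoters). The AP-1 letters TGANTCA were found in CXCL8 alone among the 8 (6.57% of promoters). A match describes the letters and does not show that a factor binds there.

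The deposited log2 values are centred, so that the median of each probe set over the 6 arrays is 0. A value therefore says how an array stands against the other arrays for the same probe set, levels of different genes cannot be compared, and genes near background cannot be told from abundant ones. Where the groups do not overlap, the lowest value of the upper group and the highest of the lower group mirror each other by construction. For the same reason the 10 listed line markers (CD44, VIM and ESR1 among them) could not be used to check the line's identity. Of these 10, 2 were called higher, beside 11.5% of all genes, and 3 lower, beside 13.0%. Those lower were CD44 (-0.59 log2), EGFR (-0.22) and VIM (-0.20). Those higher were CDH1 (0.42) and KRT18, named after its value was seen (0.26). ESR1 was at 0.09 and did not pass. HS3ST2 itself was not detectably higher in the arrays carrying its label: its probe set was at -0.22, 0.17 and -0.11 in control arrays and 0.16, 0.04 and -0.04 in the others, with a difference of 0.11 ± 0.11 log2 (SE, n = 3 per group, limma adjusted p 0.597). Whether that probe set reads the plasmid's transcript is not stated, so the arrays are called HS3ST2-labelled and directions rest on the labels. In bulk RNA, fewer cells that make a transcript and less transcript per cell cannot be told apart.

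Of the 10 chemokine genes, 4 fell in the HS3ST2-labelled arrays at a limma adjusted p under 0.05: CCL20, CXCL5, CXCL3 and CXCL8. None of the 10 rose, also at an unadjusted p under 0.05 (0 genes), and 6 did not pass. Over all 19775 genes 24.5% were called, 13.0% lower and 11.5% higher. The median change was -0.08 log2 over the 10 chemokines and 0.01 over all genes, so the list's median lay close to 0 while a few of its genes lay far below. Falls of at least 1 log2 were called for 0.470% of all genes and for 2 of the 10, CCL20 and CXCL5. By probe set, 5 of 17 were called lower, against 8.98% of all probe sets, and 0 were called higher, against 7.90%. The groups did not overlap for 5 of the 10 genes, against 40.4% of all genes.

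**Figure D1:**
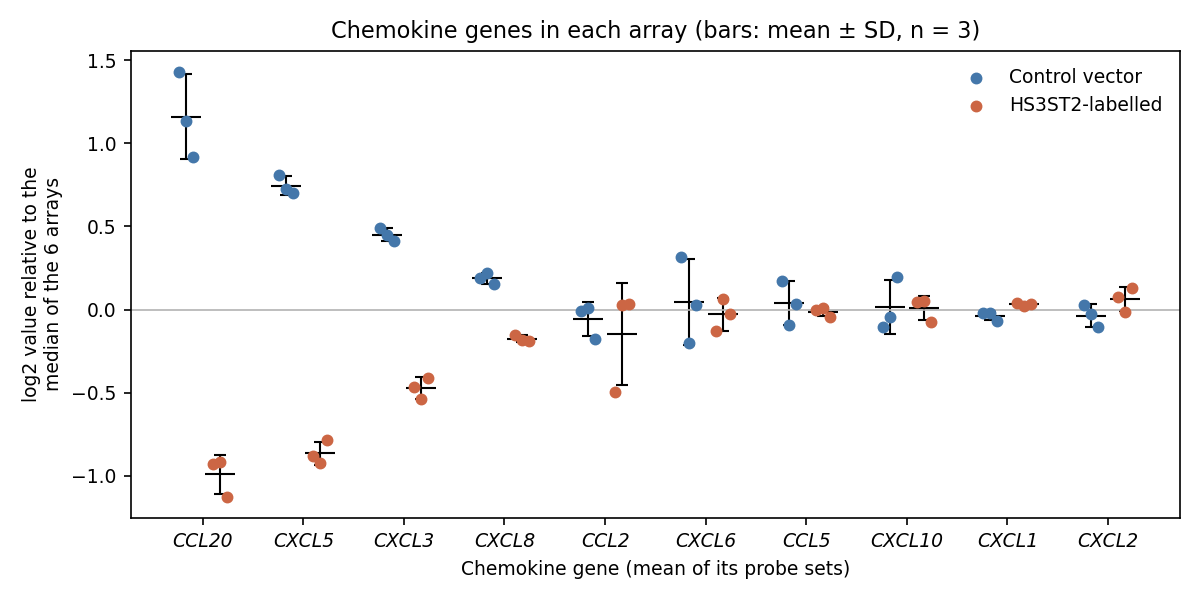
Values of the 10 chemokine genes in each array (log2 relative to the median of the 6 arrays, mean of a gene's probe sets; blue, control vector; orange, HS3ST2-labelled; black, mean ± SD, n = 3), ordered by change. The groups are widely apart for CCL20, CXCL5 and CXCL3 and closer for CXCL8, while CXCL1 is separated by a small step upward and the other 5 genes overlap.

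CCL20, the ligand of CCR6 on immature dendritic cells, B cells and some T cells, had the largest fall of the 10 with each gene's probe sets averaged. Its only probe set (205476_at) was at 1.43, 1.13 and 0.92 in control arrays and at -0.93, -0.92 and -1.12 in HS3ST2-labelled arrays. The groups lie far apart, and the control arrays differ among themselves more than the HS3ST2-labelled arrays do. The change was -2.15 ± 0.13 log2 (SE, n = 3 per group, limma adjusted p 8.9e-05 over all probe sets), a level 4.44 times lower if the logarithm has base 2. Among 19775 genes it ranked 2 from the lowest. With any 1 array left out the change stayed between -2.27 and -2.02, and with quantile normalization of the centred values it was -2.56.

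CXCL5, a neutrophil attractant also made by epithelial cells, did not read the same on its 3 probe sets. The probe set ending in _s_at (215101_s_at) was at 1.21, 1.17 and 1.01 in control arrays and at -1.01, -1.39 and -1.27 in HS3ST2-labelled arrays. The one ending in _x_at (214974_x_at) was at 1.05, 1.02 and 1.03 against -1.23, -1.02 and -1.12. Both separate the groups without overlap, with changes of -2.36 ± 0.11 and -2.16 ± 0.07 log2 (SE, n = 3 per group, limma adjusted p 3.01e-05 and 1.35e-05). The third, 207852_at, was at 0.16, -0.03 and 0.05 in control arrays and at -0.41, -0.35 and 0.03 in HS3ST2-labelled arrays. Here HS3ST2-labelled replicate 3 lies among the controls, and the change of -0.31 ± 0.12 did not pass (limma adjusted p 0.135, 95% interval -0.59 to -0.03). Without that replicate this probe set passed as well (-0.44, limma adjusted p 0.0215).

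The endings matter because they state how the probes match: in this array design, _s_at marks probes shared by several transcripts and _x_at probe sets in which some probes also resemble other sequences. The third CXCL5 probe set has no such ending. The difference between its change and that of 214974_x_at was 1.85 ± 0.13 log2 (SE, n = 3 per group, limma adjusted p 6.01e-04 over 28773 pairs of probe sets of the same gene), and against 215101_s_at it was 2.05 ± 0.17 (limma adjusted p 9.32e-04). The 2 shared-match probe sets differed from each other by 0.20 ± 0.15 (adjusted p 0.484). Such a disagreement was called for 7.93% of all pairs tested (2283 pairs, and 926 to 1189 with any 1 array left out, when both CXCL5 differences were still called). Averaged over its 3 probe sets CXCL5 changed by -1.61 ± 0.06 (adjusted p 6.05e-06 over all genes), but without shared-match probe sets it was at -0.31 and was not called (adjusted p 0.105). The size of the CXCL5 fall therefore depends on which probe set is read.

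**Figure D2:**
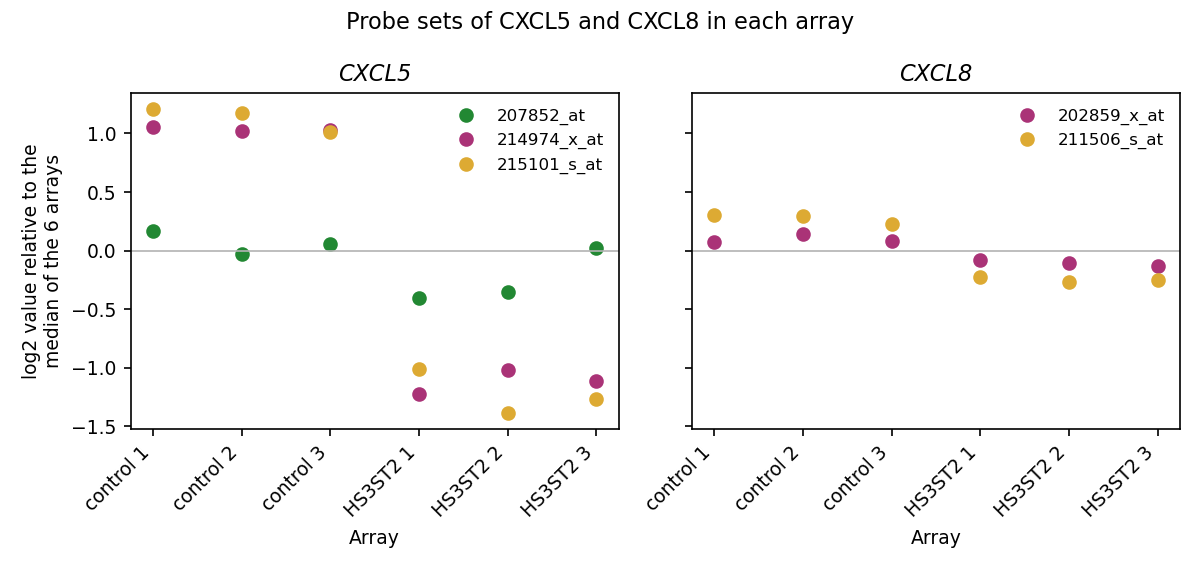
Values of each probe set of CXCL5 (left) and CXCL8 (right) in the 6 arrays, in log2 relative to the probe set's median. Both shared-match probe sets of CXCL5 drop by over 2 log2 between the groups, while 207852_at drops by 0.31 and its HS3ST2 replicate 3 lies at 0.03; the 2 CXCL8 probe sets move the same way by 0.20 and 0.52.

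CXCL3, a close relative of CXCL1 and CXCL2 that attracts neutrophils through CXCR2, also fell. Its probe set, with no shared-match ending, was at 0.49, 0.45 and 0.41 in control arrays and at -0.46, -0.54 and -0.41 in HS3ST2-labelled arrays. Replicates lay close together within each group and the groups were well apart. The change was -0.92 ± 0.07 log2 (SE, n = 3 per group, limma adjusted p 1.69e-04), or 1.89 times lower, at rank 123 from the lowest among genes. It was between -0.95 and -0.89 with any 1 array left out.

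CXCL1 and CXCL2 did not fall with CXCL3. CXCL1, a neutrophil attractant and growth factor of melanoma cells, was at -0.02, -0.02 and -0.07 in control arrays and at 0.04, 0.02 and 0.03 in HS3ST2-labelled arrays. These groups do not overlap, but the step is small: 0.07 ± 0.06 log2 (SE, n = 3 per group, limma adjusted p 0.519, 95% interval -0.07 to 0.21). Only 0.822% of probe sets had a smaller spread between replicates than CXCL1. CXCL2 has 3 probe sets, of which 209774_x_at was at -0.02, -0.03 and -0.10 against 0.03, 0.02 and 0.12. The differences were 0.07 for 230101_at, 0.11 for 209774_x_at and 0.12 for 1569203_at, with limma adjusted p of 0.633, 0.337 and 0.415. None of the pairs of CXCL2 probe sets differed detectably in its change (limma adjusted p 0.853 or more).

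In the promoter stretches shown, CXCL3 and CXCL1 were identical at 90 of 100 aligned positions, CXCL3 and CXCL2 at 90 of 101, and CXCL1 and CXCL2 at 95 of 101. The core GGAATTTCC lay 78 to 70 bases before the start in CXCL1 and CXCL3 and 77 to 69 bases before it in CXCL2. Their changes were nonetheless apart: that of CXCL1 exceeded that of CXCL3 by 0.99 log2 (95% interval 0.89 to 1.09, from a linear model on the within-array differences with 4 degrees of freedom). That of CXCL2 exceeded it by 1.02 (interval 0.98 to 1.07). CXCL1 and CXCL2 differed by 0.03 (interval -0.09 to 0.16). These pairs were picked with their changes known, so the intervals describe the size of the gaps. CXCL1, CXCL2 and CXCL3 are close relatives in their transcripts too, and whether their probes read each other's RNA was not tested.

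CXCL6, which like CXCL8 can act on both CXCR1 and CXCR2, did not fall detectably with CXCL5. Its probe set was at 0.31, -0.20 and 0.03 in control arrays and at -0.13, 0.07 and -0.03 in HS3ST2-labelled arrays. The control arrays spread over a wider range than the HS3ST2-labelled arrays and enclose them, and the change of -0.08 ± 0.13 log2 (SE, n = 3 per group) did not pass (limma adjusted p 0.764, 95% interval -0.37 to 0.22). Its promoter stretch matched that of CXCL5 at 91 of 101 aligned positions, with the same GGGAATTTCCC, while the changes averaged over probe sets differed by 1.53 log2 (95% interval 1.12 to 1.94). That gap depends on the CXCL5 probe sets: the single-match one changed by -0.31, and its difference from CXCL6 was not tested.

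CXCL8, the main human neutrophil chemokine and a secreted product of many invasive tumour lines, was lower by a smaller amount. Both of its probe sets have shared-match endings. The _s_at probe set (211506_s_at) was at 0.30, 0.29 and 0.23 in control arrays and at -0.23, -0.27 and -0.25 in HS3ST2-labelled arrays, a fall of -0.52 ± 0.06 log2 (SE, n = 3 per group, limma adjusted p 0.00136). The _x_at probe set (202859_x_at) was at 0.08, 0.14 and 0.08 against -0.08, -0.10 and -0.13. Its groups do not overlap either, but its change of -0.20 ± 0.06 did not pass (limma adjusted p 0.063). The gap between the 2 changes, 0.32 ± 0.09, did not pass (adjusted p 0.0708). As a gene CXCL8 fell by 0.36 ± 0.05 (adjusted p 0.0014) and ranked 1206 from the lowest. Its replicates were tight: 3.55% and 3.27% of probe sets had a smaller spread.

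**Figure D3:**
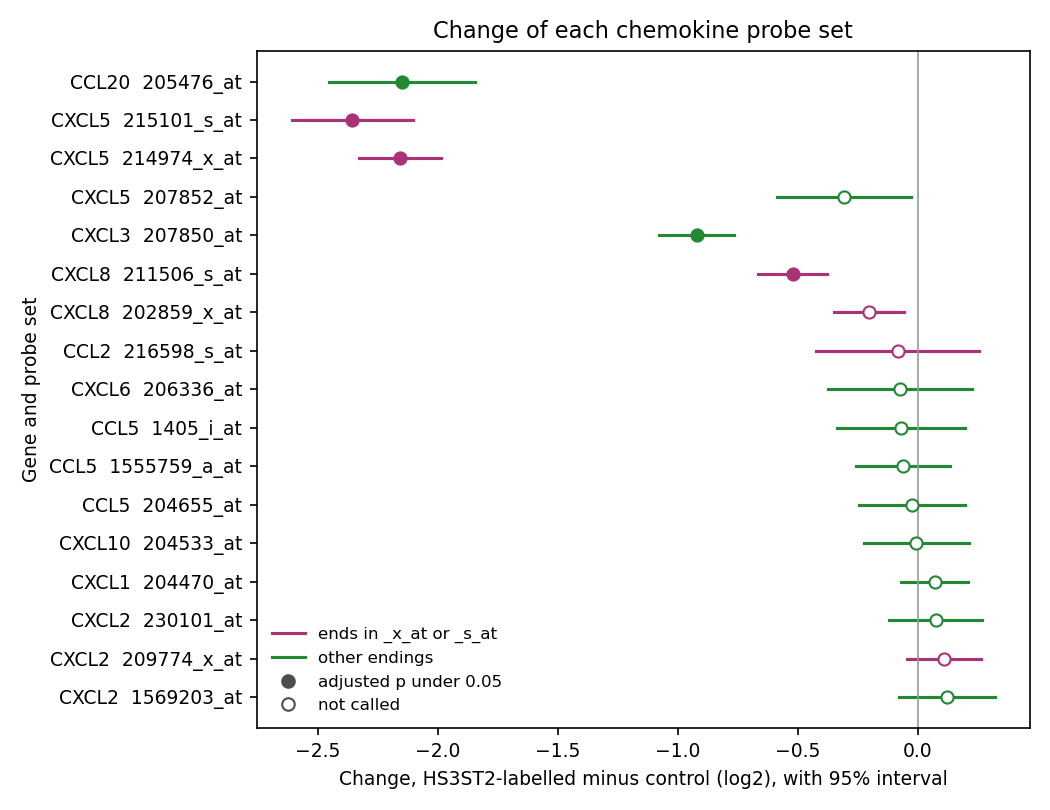
Change of each of the 17 chemokine probe sets (HS3ST2-labelled minus control, log2, points; lines, 95% interval; purple, endings _x_at or _s_at; green, other endings; filled, adjusted p under 0.05). The filled points are CCL20, both shared-match CXCL5 probe sets, CXCL3 and 1 CXCL8 probe set; all others are within 0.31 of 0.

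Over the members, 6 of 17 probe sets have shared-match endings and 3 of these 6 were called, against 22.4% of all shared-match probe sets. Of the 11 others 2 were called (CCL20 and CXCL3), against 14.7%. CCL2 and CXCL8 are read by shared-match probe sets alone, so only 8 of the 10 genes have a single-match value.

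The 7 genes on chromosome 4 fall into 2 blocks. In RefSeq's order the first runs CXCL8, CXCL6, PF4V1, CXCL1, PF4, PPBP, CXCL5, CXCL3, CXCL2, and all 9 of its protein-coding genes are chemokines. Of these 9, 4 were called lower, beside 13.0% of all genes, and 0 higher, beside 11.5%. Among the 4 are 3 of the genes chosen by name. The additional fall was in PF4, platelet factor 4, which was at 0.51, 0.20 and 0.35 in control arrays and at -0.21, -0.44 and -0.20 in HS3ST2-labelled arrays (-0.64 ± 0.10 log2, SE, n = 3 per group, limma adjusted p 0.00211). PPBP, which gives the platelet chemokine NAP-2 and lies between PF4 and CXCL5, was at 0.02 ± 0.09 (adjusted p 0.92), and PF4V1, a variant copy of PF4 whose RNA the same probes could partly read, at 0.07 ± 0.06 (adjusted p 0.465). Genes that fell thus lie among genes that did not pass along the block. In the second block (CXCL9, ART3, CXCL10, CXCL11) none of 4 genes was called, with changes between -0.01 and 0.07.

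**Figure D4:**
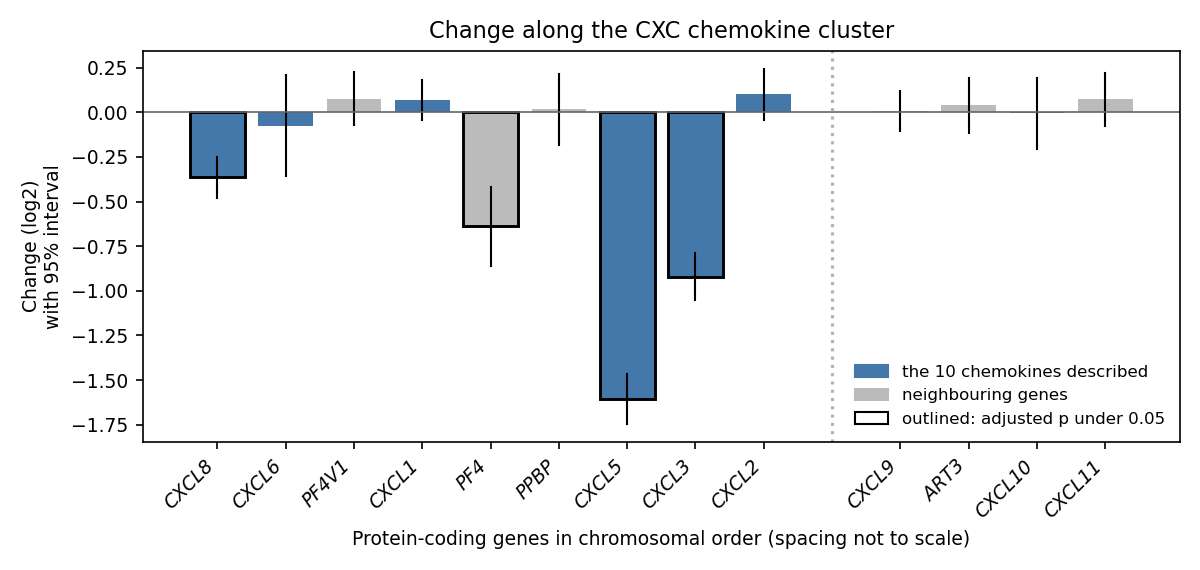
Change of each protein-coding gene of both chromosome 4 chemokine blocks in chromosomal order (bars, HS3ST2-labelled minus control, log2; lines, 95% interval; blue, the 10 chemokines described; grey, neighbouring genes; outlined, adjusted p under 0.05). CXCL8, PF4, CXCL5 and CXCL3 reach below 0 with intervals clear of it, and their neighbours CXCL6, CXCL1, PPBP and CXCL2 do not.

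The remaining 3 members showed no detectable change. CXCL10 was at -0.10, -0.05 and 0.20 in control arrays and at 0.05, 0.05 and -0.07 in HS3ST2-labelled arrays, a change of -0.01 ± 0.09 log2 (SE, n = 3 per group, limma adjusted p 0.975, 95% interval -0.22 to 0.21). Its groups overlap fully. CCL2, the monocyte attractant, was at -0.01, 0.01 and -0.18 in control arrays and at -0.50, 0.03 and 0.04 in HS3ST2-labelled arrays. HS3ST2-labelled replicate 1 is the low array: the change was -0.09 ± 0.15 (limma adjusted p 0.764, interval -0.43 to 0.25), and 0.09 without that array. CCL5 has 3 probe sets with differences of -0.07, -0.06 and -0.02 and limma adjusted p of 0.755, 0.697 and 0.905. The first of them (1405_i_at) was at 0.28, -0.19 and 0.10 in control arrays and at 0.02, -0.02 and -0.03 in HS3ST2-labelled arrays, which lie inside the range of the controls.

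Ordered by change, CCL20, CXCL5, CXCL3 and CXCL8 come first, then CCL2, CXCL6, CCL5, CXCL10, CXCL1 and CXCL2. Of the 9 pairs of neighbours, 3 had a 95% interval that left out 0. CXCL5 lay above CCL20 by 0.54 log2 (interval 0.10 to 0.98), CXCL3 above CXCL5 by 0.69 (0.64 to 0.74) and CXCL8 above CXCL3 by 0.56 (0.43 to 0.68). The order was taken from the same arrays, and the intervals were not adjusted for the 9 pairs. They describe the size of the gaps. CXCL8 and CCL2 were 0.28 apart, but the interval from -0.26 to 0.82 holds 0, since CCL2 varied between replicates. The order of the last 6 genes is not resolved. The place of CXCL5 depends on its probe sets, since the shared-match ones alone gave -2.16 and -2.36, beside -2.15 for CCL20. The single-match one gave -0.31, which would place CXCL5 above CXCL3 (-0.92) and CXCL8 (-0.36) and turn the direction of the CXCL5 and CXCL3 pair.

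Of 5 kinds of control probe set, 2 did not overlap between the groups. The median of 6 ribosomal RNA control probe sets was -0.20, -0.06 and -0.29 in control arrays and 0.02, 0.16 and 0.74 in HS3ST2-labelled arrays, and that of 6 GAPDH and actin control probe sets was 0.15, 0.11 and 0.13 against -0.09, -0.14 and -0.15. Both had a two-sided exact permutation p of 0.1, which is the lowest value possible with 3 arrays a group. The hybridisation spike-ins, the poly-A spike-ins and the remaining control probe sets overlapped (exact permutation p 0.2, 0.3 and 1), though the poly-A spike-ins were at -0.85 in control replicate 3 and 0.70 in HS3ST2-labelled replicate 3. Without HS3ST2-labelled replicate 3, where the ribosomal signal was highest, CCL20 changed by -2.08, CXCL5 by -1.65, CXCL3 by -0.95 and CXCL8 by -0.36, and these 4 genes were still called. The other HS3ST2-labelled arrays also lay above the controls in ribosomal signal and below them in GAPDH and actin, so with or without that array these signals move with the groups, and their part in the chemokine changes cannot be told apart from the groups.

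Among the other chemokines few were called. Of 34 listed, 29 were measured, 1 fell (PF4), 2 rose and 26 did not pass, with a median change of 0.00 log2. Those that rose were CCL26, an eosinophil attractant (0.37 ± 0.08, SE, limma adjusted p 0.00935), and CXCL17, a mucosal chemokine (0.19 ± 0.06, adjusted p 0.0423). The share called was 10.3%, beside 24.5% of all genes. The membrane-bound chemokines CXCL16 (0.00 ± 0.10) and CX3CL1 (0.08 ± 0.06) and the interferon-induced CXCL11 (0.07 ± 0.06) did not pass (adjusted p 0.991, 0.347 and 0.479).

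Of 21 measured chemokine receptors, 2 rose, 1 fell and 18 did not pass, with a median of 0.05 log2. The share called was 14.3%, beside 24.5% of all genes. CXCR4, the receptor of CXCL12, was at -0.29, -0.35 and -0.27 in control arrays and at 0.28, 0.39 and 0.36 in HS3ST2-labelled arrays. It rose by 0.65 ± 0.06 (SE, n = 3 per group, limma adjusted p 1.49e-04). CCRL2, a receptor-like protein that does not signal as a classical chemokine receptor, rose by 0.29 ± 0.05 (adjusted p 0.00408), and CCR10 fell by 0.32 ± 0.07 (adjusted p 0.0121). The receptors of the described ligands did not pass: CXCR1 was at 0.01, CXCR2 at 0.04, CXCR3 at -0.04, CCR2 at 0.05 and CCR6 at 0.07 log2. ACKR3, a scavenger of CXCL12, was at 0.02.

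Cytokines and receptors that induce chemokines moved both ways. Of 21 measured, 5 fell, 4 rose and 12 did not pass (median -0.09 log2, 42.9% called beside 24.5% of all genes). IL6, an inflammatory cytokine, was at 0.64, 0.54 and 0.50 in control arrays and at -0.57, -0.55 and -0.50 in HS3ST2-labelled arrays, a fall of 1.10 ± 0.06 (SE, n = 3 per group, limma adjusted p 1.79e-05). The interleukin-1 genes IL1B and IL1A fell by 0.63 ± 0.06 and 0.58 ± 0.06 (adjusted p 1.72e-04 and 5.04e-04). TNFRSF1B, a TNF receptor, fell by 1.21 ± 0.09 and TLR2, a receptor of bacterial lipoproteins, by 0.83 ± 0.07 (adjusted p 6.8e-05 and 1.5e-04). The 4 that rose, named after their values were seen, were TLR4, the lipopolysaccharide receptor (0.61 ± 0.06, adjusted p 3.68e-04), OSMR, a receptor of oncostatin M (0.33 ± 0.05, adjusted p 0.00271), TNFRSF1A, the other TNF receptor (0.26 ± 0.06, adjusted p 0.017), and LTA, lymphotoxin alpha (0.25 ± 0.07, adjusted p 0.0415). The TNF and toll-like receptors thus held genes called in either direction. TNF was at 0.13 ± 0.05 and did not pass (adjusted p 0.111).

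Among NF-kB regulators 4 of 21 fell, 5 rose and 12 did not pass, with a median of -0.08 log2. The share called was 42.9%, beside 24.5% of all genes. TNFAIP3, a feedback inhibitor, rose by 0.76 ± 0.05 (SE, n = 3 per group, limma adjusted p 4.95e-05), IKBKB, a kinase of the inhibitor IkB, by 0.64 ± 0.08 and MYD88, an adaptor of interleukin-1 receptors, by 0.44 ± 0.06 (adjusted p 7.67e-04 and 0.00151). The 4 that fell, named after their values were seen, were the DNA-binding subunit REL (-0.35 ± 0.06), the kinases MAP3K14 (-0.35 ± 0.07) and IKBKE (-0.34 ± 0.09) and the inhibitor NFKBIE (-0.32 ± 0.07), with limma adjusted p between 0.00437 and 0.0276. Of the other DNA-binding subunits, NFKB1 was at -0.24 (adjusted p 0.106), RELA at -0.04 (0.711) and RELB at -0.11 (0.251), and these did not pass. The inhibitors NFKBIA and NFKBIZ, often induced with chemokines, were at -0.09 and -0.02 (adjusted p 0.345 and 0.893).

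Of 17 genes of the interferon system, which include transcription factors, receptors, ligands and sensors, 3 rose and 3 fell (median -0.01 log2). The share called was 35.3%, beside 24.5% of all genes. Those that rose were transcription factors: IRF9 by 0.46 ± 0.07, IRF1 by 0.31 ± 0.05 and IRF5, named after its value was seen, by 0.26 ± 0.07 (SE, limma adjusted p 0.00293, 0.00407 and 0.0233). Those that fell were RIGI, an RNA sensor, by 0.91 ± 0.07, the kinase TBK1 by 0.36 ± 0.05 and the receptor chain IFNGR2, also named after its value was seen, by 0.19 ± 0.06 (limma adjusted p 6.81e-05, 0.002 and 0.0425). Of 12 AP-1 and C/EBP genes 2 rose and 3 fell (median -0.04, 41.7% called beside 24.5% of all genes). CEBPD rose by 0.65 ± 0.06, CEBPG by 0.26 ± 0.06, and FOSL2 fell by 0.42 ± 0.06 and CEBPB by 0.20 ± 0.05, while FOSL1 was at 0.04 ± 0.05 and did not pass.

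Chemokine transcripts are short-lived, and 13 factors of mRNA decay were measured. Of these, 5 rose and 4 fell (median -0.06 log2, 69.2% called beside 24.5% of all genes). ZFP36, which speeds the decay of cytokine mRNAs, fell by 0.34 ± 0.05, and ELAVL1, which binds the same kind of AU-rich element and stabilises mRNAs, by 0.42 ± 0.05 (SE, n = 3 per group, limma adjusted p 0.00167 and 0.00102). DIS3, an exosome nuclease, rose by 0.35 ± 0.05 (adjusted p 0.00217). Leukocytes are other known sources of these chemokines, though the RNA here came from an established tumour cell line. Of 17 measured leukocyte markers 0 were called by limma, beside 24.5% of all genes. Of these markers 1 was higher and 0 lower at an unadjusted p under 0.05. Their mean over the list was -0.07 to 0.00 in control arrays and 0.01 to 0.07 in HS3ST2-labelled arrays, on a scale that does not give levels. The part of other cells in the chemokine changes was not tested.

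**Figure D5:**
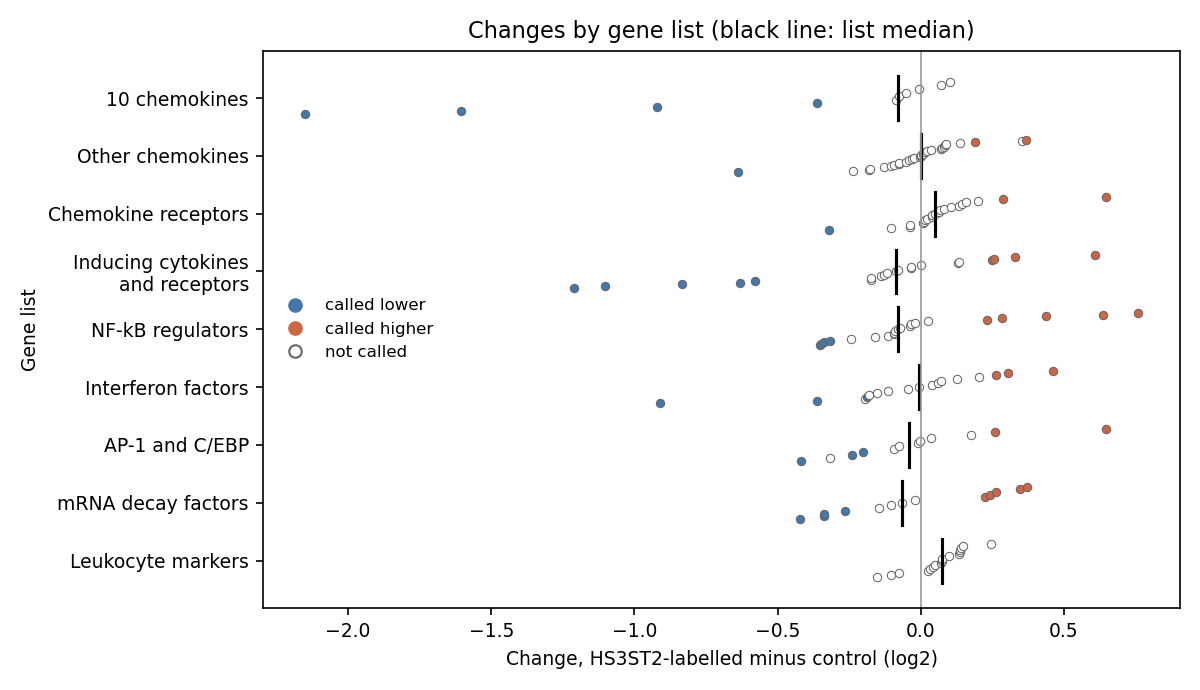
Change of each measured gene in 9 gene lists (points, HS3ST2-labelled minus control, log2; blue, called lower; orange, called higher; white, not called; black line, median of the list). The 10 chemokines hold the lowest points of the plot, CCL20 at -2.15 and CXCL5 at -1.61, and the list medians lie within 0.09 of 0.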

How the data were processed

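Total RNA (3.6 µg per sample, per the labels' protocols) from 3 control vector and 3 HS3ST2-plasmid samples of MDA-MB-231 cells was hybridised to Affymetrix arrays. The deposited log2 values were made by the authors with RMA, per the submitters' processing notes. In the file the median of every probe set over the 6 arrays is 0 within 1e-06, a centring step that no source describes. The log base is unstated and taken as 2. Arrays give no counts, and their number limits the precision.

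After 62 control probe sets were set aside, 54613 were tested with limma 3.58.1 (lmFit, eBayes, R 4.3.3), HS3ST2-labelled minus control with no covariate. For genes, the 41091 probe sets with 1 symbol (annotation updated through RefSeq gene numbers) were averaged to 19775 genes. Calls are at a Benjamini-Hochberg adjusted p under 0.05 over the whole table. The scripts were checked on simulated data with known changes. Pairs of probe sets of genes with 2 to 5 probe sets were compared by limma on their within-array differences. The genes named are all members, HS3ST2, up to 3 called genes of each list with the smallest p, and others fixed by name. Further called genes are marked in the text as named after their values were seen. 1 gene of that rule is not reported here. The members and lists were chosen with earlier results of these data known.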

Additional observations from a re-analysis of the deposited data

How the results depend on the processing

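With any 1 array left out, quantile normalization, arrays centred on their median, array weights, robust eBayes, the probe set of largest SD for each gene, or a threshold of 0.01, 4 chemokine genes were called lower, and 5 to 6 probe sets with any 1 array left out. With all shared-match probe sets set aside 2 were called, since CXCL8 then has no value and CXCL5 was at -0.31. Quantile normalization was run on the centred values and not on intensities, and the sizes of the CCL20 and CXCL5 changes depended on it. With quantile normalization CCL20 changed by -2.56, CXCL5 by -1.91, CXCL3 by -0.92 and CXCL8 by -0.36. The CXCL5 probe sets 215101_s_at and 214974_x_at then changed by -2.91 and -2.52, and 207852_at by -0.29. At the threshold of 0.01, 4643 probe sets and 2840 genes were called over the whole table. The calls on pairs of probe sets fell from 2283 to between 926 and 1189 with any 1 array left out. Some uncalled changes took either sign with 1 array left out (those of CXCL1, CXCL2, CCL5 1555759_a_at, CXCL5 207852_at and CXCL8 202859_x_at did not): CCL2 lay between -0.18 and 0.092, CXCL6 between -0.20 and 0.059, CXCL10 between -0.066 and 0.084, and CCL5 between -0.12 and 0.015 as a gene, -0.20 and 0.039 for 1405_i_at and -0.10 and 0.030 for 204655_at. So did the differences between CCL5 probe sets (1405_i_at minus 1555759_a_at -0.060 to 0.062, 1405_i_at minus 204655_at -0.18 to 0.040, 1555759_a_at minus 204655_at -0.12 to 0.082) and CXCL2 probe sets (1569203_at minus 209774_x_at -0.030 to 0.063, 1569203_at minus 230101_at -0.035 to 0.092, 209774_x_at minus 230101_at -0.015 to 0.084); the cause was not tested. Whether the replicate numbers pair the samples is not stated. Deviations from the group means correlated at 0.15, 0.04 and -0.08 in same-numbered arrays and between -0.19 and 0.18 in the others. Control arrays 1 and 2 and HS3ST2-labelled array 1 correlated best with their own number, and the other arrays did not. With 3 arrays a group these values cannot settle the pairing. With the replicate number as a block 7705 probe sets, 4302 genes, 1573 pairs, 4 chemokine genes and 5 of their probe sets were called. A filter on dim probe sets was not run, since centring removed the levels. For the same reason no signal over background could limit a value.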
